A study of Mus musculus with 22 samples.

Results

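The 10 genes described here encode growth factors that dermal fibroblasts can send to keratinocytes: Fgf2, Fgf7, Fgf10, Fgf18, Hgf, Nrg1, Hbegf, Areg, Ereg and Tgfa. They were taken by gene symbol from the 55414 rows of a table of read counts, and all 10 passed the filter on low counts that left 17554 genes for testing. Fgf18 and Areg lay near the limit of detection in most libraries, and Fgf18 passed mainly through its counts in expanded skin on day 4.

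Fibroblasts feed the epidermis through a paracrine loop. FGF7 and FGF10 bind the epithelial splice form of the receptor FGFR2, HGF binds MET, and ligands of the EGF family bind EGFR and its ErbB relatives, all of which signal through the MAPK cascade to drive keratinocyte growth and migration. EGF-family ligands are made as membrane-anchored precursors and released by ADAM proteases, HGF is cut into its active form by serine proteases, and heparan sulfate on the cell surface holds FGFs and HGF near their receptors.

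RNA was sequenced in bulk from fibroblasts sorted out of mouse skin. Every mouse had back-skin surgery with a tunnel made under the skin from an incision near the tail towards the neck; EXP mice received a hydrogel expander in that tunnel and CTRL mice did not. The sort removed cells carrying CD31, CD45, CD117 or EpCAM and kept DAPI-negative cells positive for CD34 and PDGFRα. There were 4 CTRL with 5 EXP libraries for day 1, 3 of each for day 2, and 4 with 3 for day 4; the labels used here give no strain, age or sex, and do not state that each library came from a separate mouse, so the p-values measure the spread between these libraries.

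Library totals ran from 21461294 to 30210204 counts, and 3 counts, taken as the smallest detectable level, were 0.0799 to 0.155 CPM; this floor covers counting error only. CPM of the members and other named genes are counts divided by the library total times its TMM scaling factor, and sums of marker genes are on the library totals alone. The 8 fibroblast markers summed to 88620 to 328500 CPM per library, and the 13 keratinocyte markers to 4.14 to 56.8 CPM. The fibroblast sums were lower in EXP, at 219800 to 265600 against 118100 to 175000 CPM on day 1 and 294400 to 328500 against 88620 to 184100 on day 2, and they overlapped on day 4 (245300 to 308600 against 112100 to 261200). Of the 8, 4 fell and 1 rose on day 1, 5 fell and 1 rose on day 2, and 2 fell and 2 rose on day 4. Of the genes of the positive sort markers, Cd34 fell by 1.76 and 2.06 on the log2 scale on days 1 and 2 (edgeR, adjusted p = 0.000703 and 0.00376), and Pdgfra rose by 0.84, 1.71 and 0.81 on days 1, 2 and 4 (adjusted p = 0.0159, 0.00128 and 0.0416). These marker shifts accompany all member changes below, and their part in them was not tested. Ptprc, the gene of the CD45 antigen used to exclude blood cells, did not exceed 0.246 CPM in any group's libraries. A set of 191 genes that track Rnf10 divided the libraries into 7 with high and 15 with low levels: the high side held 3 of the 4 CTRL and 2 of the 5 EXP libraries from day 1 and 2 of the 4 CTRL libraries from day 4; the labels name no batch. In sorted bulk RNA, a change in the fraction of cells that make a transcript and a change in the amount per cell cannot be told apart.

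The promoters of the members that a test called on day 4 are shown here because Fgf2 and Fgf10 moved one way and Fgf18 the other. That of Areg is shown because it alone, among the 7 members with a window, matched the cyclic AMP response element. RefSeq windows (GRCm38.p6) were found for 7 of the 10 members; Nrg1, Hbegf and Ereg had none. Each window is the 250 bases before the annotated start, written 5′ to 3′ on the gene's strand: Fgf2 at chr3:37348403-37348652 (+), Fgf10 at chr13:118714449-118714698 (+), Fgf18 at chr11:33147401-33147650 (−) and Areg at chr5:91139349-91139598 (+). Capitals mark matches, on either strand, to any of the 6 motifs searched.
Fgf2: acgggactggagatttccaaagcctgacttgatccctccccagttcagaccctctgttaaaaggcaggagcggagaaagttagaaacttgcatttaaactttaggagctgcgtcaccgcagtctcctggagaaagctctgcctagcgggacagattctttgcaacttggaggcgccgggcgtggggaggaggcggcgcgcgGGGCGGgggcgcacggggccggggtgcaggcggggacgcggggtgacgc
Fgf10: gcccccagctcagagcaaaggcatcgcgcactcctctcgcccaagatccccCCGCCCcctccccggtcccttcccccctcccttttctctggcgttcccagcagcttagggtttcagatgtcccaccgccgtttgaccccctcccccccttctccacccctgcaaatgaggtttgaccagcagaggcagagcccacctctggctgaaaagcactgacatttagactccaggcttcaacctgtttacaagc
Fgf18: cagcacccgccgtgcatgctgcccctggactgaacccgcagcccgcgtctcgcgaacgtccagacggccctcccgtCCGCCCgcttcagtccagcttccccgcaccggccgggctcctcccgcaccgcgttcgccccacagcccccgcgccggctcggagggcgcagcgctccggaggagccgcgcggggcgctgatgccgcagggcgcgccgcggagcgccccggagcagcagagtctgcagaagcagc
Areg: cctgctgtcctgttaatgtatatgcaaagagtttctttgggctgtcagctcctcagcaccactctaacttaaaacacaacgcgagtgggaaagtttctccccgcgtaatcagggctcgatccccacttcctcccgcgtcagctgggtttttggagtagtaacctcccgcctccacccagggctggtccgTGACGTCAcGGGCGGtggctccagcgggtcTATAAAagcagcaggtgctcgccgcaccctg
The motifs were AP-1 (TGANTCA), CRE (TGACGTCA) and the NF-kB consensus, with 3 shorter ones. The TEAD motif was GGAATG. The TATA box searched for was TATAAA. For the GC box the letters were GGGCGG, which appear as CCGCCC where the match lies on the other strand. Areg held the CRE 61 bases before the start (position -61), a GC box at -52 and a TATA box at -31. The Fgf2, Fgf10 and Fgf18 windows each held a single GC box, at -49, -199 and -174. Among all 32851 RefSeq windows of this length, 32.7% held a GC box, 12.4% the TATA box, 12.6% the TEAD motif, 6.75% AP-1, 1.55% CRE and 0.98% NF-kB. GC content was 62.4% for Fgf2, 61.2% for Fgf10, 77.2% for Fgf18 and 57.2% for Areg, against a median of 52.4% over all windows. A match is a run of letters and was not tested for binding.

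Levels can be set beside each other between genes only per length of exon. On that scale (mean CPM per kb of exon) Fgf7, the keratinocyte growth factor made by dermal fibroblasts, stood highest of the 10 in every group except day 4 EXP, at 17.0 ± 3.39 (SD, n = 4) in day 1 CTRL and 42.0 ± 24.3 (n = 3) in day 4 EXP. Ereg, which encodes epiregulin, an EGFR ligand, was at 0.936 ± 0.424 (n = 4) in day 1 CTRL and 51.0 ± 65.2 (n = 3) in day 4 EXP, where its SD exceeded its mean. In CTRL skin, Fgf10 and Hbegf came next after Fgf7 on all days, at 3.76 to 4.21 and 3.36 to 3.97 CPM per kb, and these 2 did not differ beyond the spread of the libraries. Hgf, Fgf2 and Ereg followed between 0.656 and 2.05 CPM per kb in the 3 CTRL groups, and the ranges of their libraries overlapped. Areg, Nrg1, Fgf18 and Tgfa were all under 0.23 CPM per kb in CTRL skin. The order in CTRL skin was thus Fgf7, then Fgf10 with Hbegf, then the other members.

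**Figure D1:**
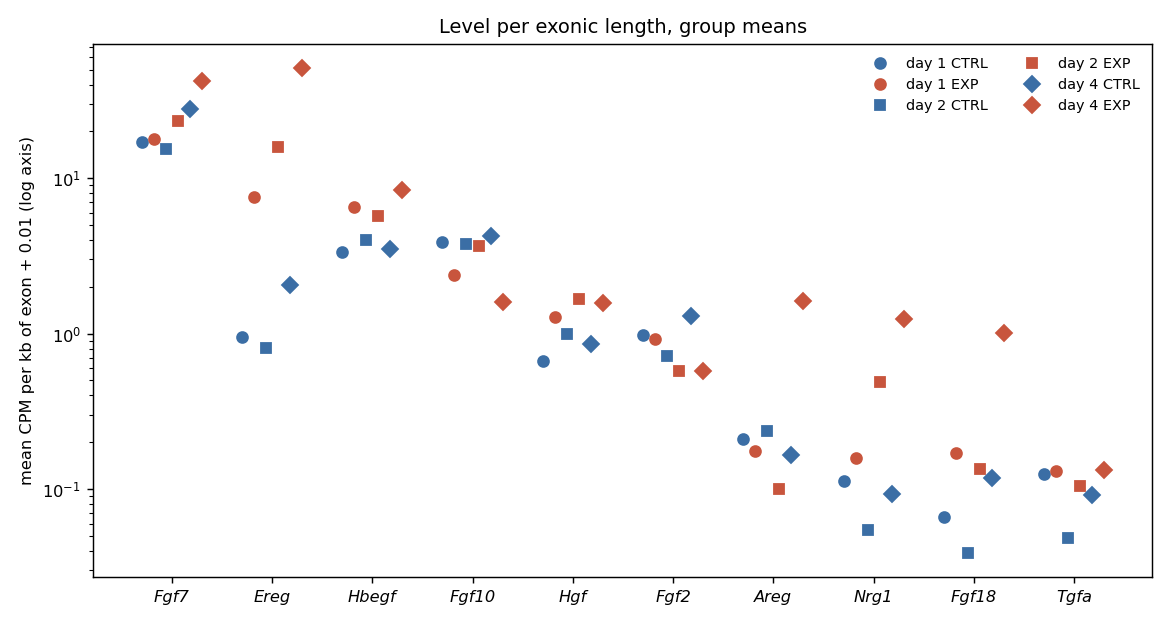
Mean level of each member per kb of exon (CPM per kb + 0.01, log axis) in the 6 groups of day and arm; colours mark the arm and shapes the day. Fgf7 is at 15.3 to 42.0 in all 6 groups, whereas Ereg runs from 0.803 in day 2 CTRL to 51.0 in day 4 EXP.

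The main comparison asked how the expander changed these transcripts against surgery alone on each day. Over all genes, 28.5% were called on day 1, 13.5% on day 2 and 22.5% on day 4 at an adjusted p under 0.05 (edgeR quasi-likelihood test, Benjamini-Hochberg over all 17554 genes). On day 1, Ereg and Hbegf rose and none of the 10 fell, with Fgf10 alone below an unadjusted p of 0.05 among the negative values. On day 2, Ereg and Nrg1 rose and none fell. On day 4, Ereg, Nrg1, Hbegf and Fgf18 rose, and Fgf2 and Fgf10 fell. The 2 members that rose on day 1 and the 2 on day 2 stand beside 13.6% and 7.85% of all genes called higher. On day 4 the share was 13.6%, to be read against Ereg, Nrg1 and Hbegf only, since Fgf18 entered the test mainly through the group in which it is high. The 2 that fell on day 4 stand beside 8.96% called lower. The median log2 fold change of the members was 0.30, 0.68 and 1.07 on days 1, 2 and 4, against 0.01, 0.03 and 0.05 for all genes; with Fgf18 on day 2 set to the bound its counts allow, the day 2 median was 0.57, and without Fgf18 and Areg the day 4 median was 0.73.

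**Figure D2:**
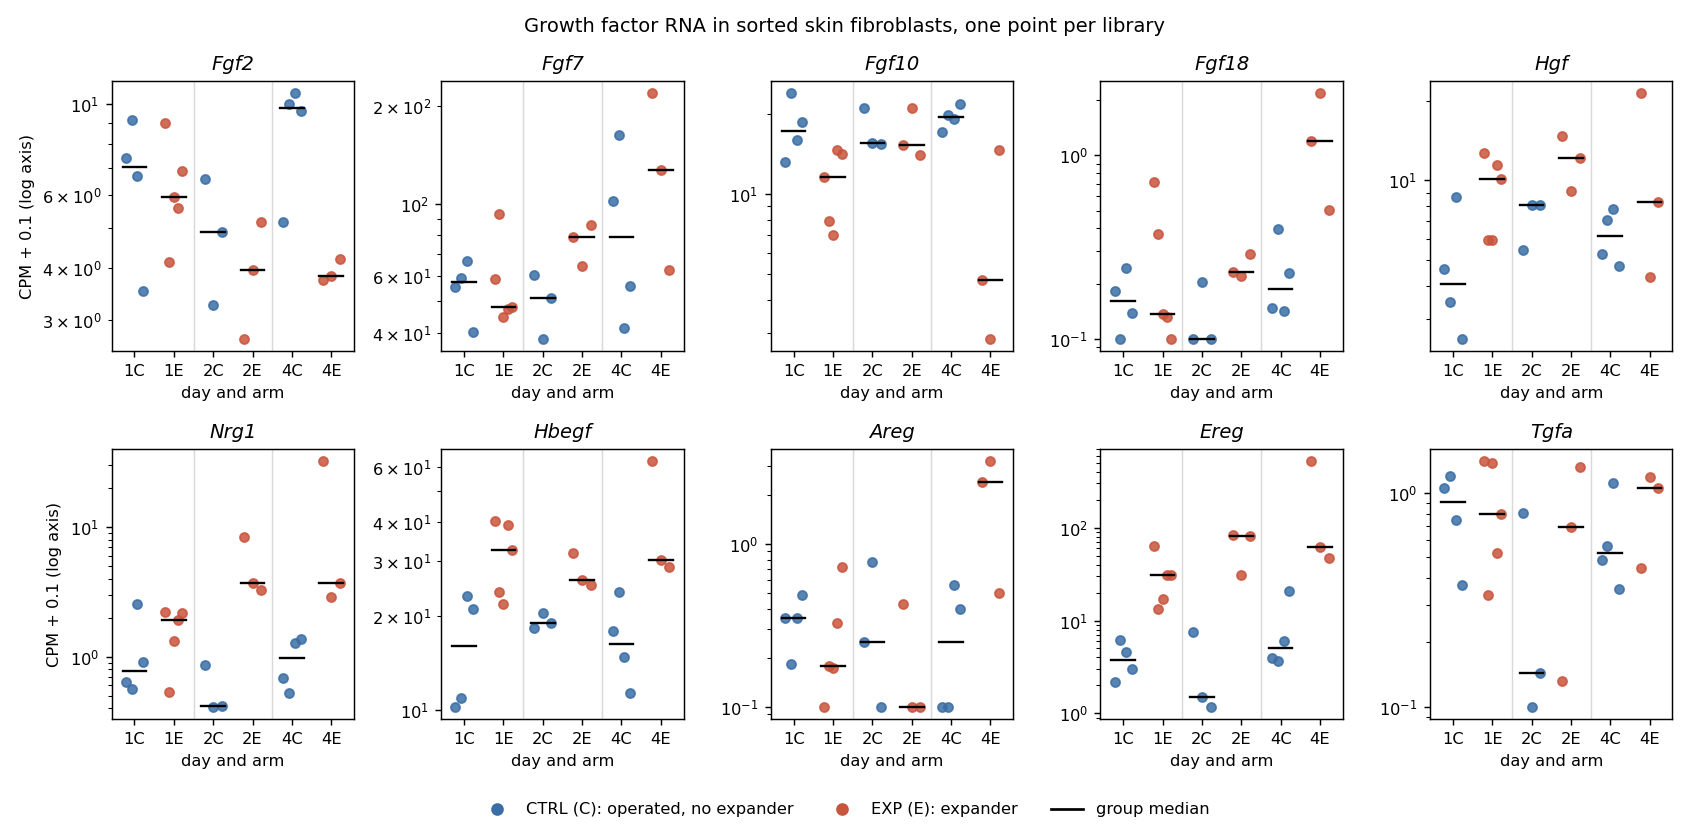
CPM + 0.1 (log axis) of each member, 1 point per library, by day (1, 2, 4) and arm (C for CTRL, blue; E for EXP, red), with the group median as a bar. Ereg is the 1 member whose EXP libraries lie above all CTRL libraries on every day. Of all genes tested, 11.4%, 21.2% and 15.0% lie so on days 1, 2 and 4 taken singly, and the share on all 3 days together was not counted. EXP replicate 1 of day 4 is the highest point for Fgf7, Hgf, Nrg1, Hbegf and Ereg.

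Among the FGF genes, Fgf7 showed no call on any day. Its CTRL libraries were at 55.3, 59.0, 66.3 and 40.2 CPM on day 1, 60.3, 38.2 and 51.0 on day 2, and 102, 163, 41.4 and 55.8 on day 4. Its EXP libraries were at 58.3, 92.7, 44.6, 47.1 and 48.0 CPM on day 1, 78.7, 64.3 and 85.6 on day 2, and 219, 128 and 62.5 on day 4. The arms overlapped on days 1 and 4, and on day 2 all 3 EXP libraries lay above all 3 CTRL libraries, as did 21.2% of all genes tested. Its log2 fold changes were 0.08, 0.61 and 0.59, with SEs of 0.35, 0.43 and 0.40 and adjusted p of 0.897, 0.378 and 0.299, and the day 4 value was 0.033 without EXP replicate 1.

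Fgf10, which encodes the other main ligand of the epithelial form of FGFR2, fell on day 4. Its day 4 CTRL libraries were at 17.0, 19.7, 19.0 and 21.7 CPM and its EXP libraries at 4.63, 2.74 and 14.6. The 3 EXP libraries lay below all 4 CTRL libraries, as in 10.9% of all genes tested, and EXP replicate 3 was close to the CTRL range. The log2 fold change was -1.41 (SE 0.40, adjusted p = 0.0166). It was -2.39 without EXP replicate 3, and the call was lost without EXP replicate 1 or 2 (adjusted p up to 0.0931). On day 1 the Fgf10 log2 fold change was -0.70 (adjusted p = 0.121), with CTRL libraries from 13.1 to 23.9 CPM and EXP libraries from 6.89 to 14.6, and on day 2 it was -0.05 (adjusted p = 0.956).

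Fgf2 encodes basic FGF, a ligand that binds FGFR1 and other FGF receptors and acts on many cell types. It also fell on day 4, when CTRL libraries were at 5.07, 9.89, 10.5 and 9.48 CPM and EXP libraries at 3.65, 3.72 and 4.12. CTRL replicate 1 lay nearest the EXP libraries. Every EXP library lay below every CTRL library, as in 10.9% of all genes tested. The log2 fold change was -1.19 (SE 0.35, adjusted p = 0.0195), and the call was lost without CTRL replicate 3, EXP replicate 1 or EXP replicate 2 (adjusted p up to 0.0701). On days 1 and 2 the Fgf2 libraries of the arms overlapped and the log2 fold changes were -0.08 (adjusted p = 0.858) and -0.32 (adjusted p = 0.611). Exons of Fgf2 share 895 bases with Nudt6 on the other strand and with Gm43439, and since the strand setting of the counting is not known here, reads of these genes cannot be told apart.

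Fgf18 encodes a ligand known from hair follicles and bone growth. In day 4 CTRL libraries it was at 0.0483, 0.295, 0.0421 and 0.128 CPM, and in EXP libraries at 1.09, 2.07 and 0.401, that is 41, 59 and 11 counts. All 3 EXP libraries lay above all CTRL libraries, most of which were near the floor; 15.0% of all genes tested were separated in this way on day 4, but Fgf18 passed the filter mainly through these EXP libraries. The log2 fold change was 3.15 (SE 1.08, adjusted p = 0.0400), but the call was kept in only 2 of the 7 fits that left out a day 4 library, and was lost without CTRL replicate 1, 3 or 4 or EXP replicate 1 or 2 (adjusted p up to 0.183). On day 1 the counts ran from 0 to 4 in CTRL and from 0 to 18 in EXP libraries, and on day 2 from 0 to 2 in CTRL and from 3 to 5 in EXP, too few to compare at this depth.

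Hgf encodes hepatocyte growth factor, the mesenchymal ligand of MET, and was not called on any day. CTRL libraries were at 4.53, 3.37, 8.53 and 2.42 CPM on day 1, 5.35, 8.0 and 7.95 on day 2, and 5.17, 6.99, 7.71 and 4.63 on day 4. EXP libraries were at 12.6, 5.87, 5.87, 11.3 and 9.99 CPM on day 1, 14.6, 9.0 and 12.1 on day 2, and 21.2, 4.21 and 8.20 on day 4. Only on day 2 were the arms apart, with EXP above CTRL as in 21.2% of all genes tested. The log2 fold changes were 0.95, 0.75 and 0.87, with SEs of 0.40, 0.48 and 0.44 and adjusted p of 0.0800, 0.327 and 0.158; day 1 passed the threshold without CTRL replicate 3 (adjusted p = 0.0188), and the day 4 value was -0.011 without EXP replicate 1.

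Within the EGF family, Ereg rose on each of the 3 days, as did 2.61% of all genes tested. On day 1, CTRL libraries were at 2.08, 6.03, 4.46 and 2.88 CPM and EXP libraries at 64.0, 13.3, 17.1, 30.7 and 31.1. On day 2, CTRL libraries were at 7.48, 1.39 and 1.07 CPM and EXP libraries at 83.9, 30.7 and 81.8. On day 4, CTRL libraries were at 3.86, 3.54, 5.94 and 20.6 CPM and EXP libraries at 521, 62.4 and 47.6. The arms did not overlap on any day, with EXP above CTRL. Taken singly, days 1, 2 and 4 showed this for 11.4%, 21.2% and 15.0% of all genes tested. The share on all 3 days together was not counted. EXP replicate 1 of day 4 stood far above the other EXP libraries. The log2 fold changes were 3.01, 4.31 and 4.63, with SEs of 0.81, 1.02 and 0.90 and adjusted p of 0.00910, 0.00909 and 0.00217. They correspond to 8.08-fold, 19.8-fold and 24.8-fold. Without day 4 EXP replicate 1 the day 4 value was 2.67 (adjusted p = 0.0354), and the day 2 call was lost without CTRL replicate 2 (adjusted p = 0.0535). Without CTRL replicate 1 the day 2 value was 5.73 (adjusted p = 0.0103).

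Hbegf, which encodes heparin-binding EGF, rose on days 1 and 4. Day 1 CTRL libraries were at 10.2, 10.9, 23.1 and 20.95 CPM and EXP libraries at 40.1, 23.7, 21.8, 39.0 and 32.3. Of the 5 EXP libraries 4 lay above all CTRL libraries. The log2 fold change was 0.95 (SE 0.29, adjusted p = 0.0172), and the call was lost without CTRL replicate 1 or 2 (adjusted p up to 0.0674). Day 2 CTRL libraries were at 18.3, 20.4 and 18.9 CPM and EXP libraries at 31.8, 25.9 and 25.1. Every EXP library lay above every CTRL library, as in 21.2% of all genes tested. The day 2 log2 fold change was 0.52, which did not pass (SE 0.34, edgeR adjusted p = 0.339). Day 4 CTRL libraries were at 17.8, 23.8, 14.7 and 11.3 CPM and EXP libraries at 62.4, 30.0 and 28.6. Again every EXP library lay above, as in 15.0% of all genes tested. The day 4 value was 1.26 (SE 0.32, adjusted p = 0.00929), or 0.76 (adjusted p = 0.131) without EXP replicate 1.

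Nrg1 encodes neuregulin, which binds ErbB3 and ErbB4 rather than EGFR. On day 1 its CTRL libraries were at 0.541, 0.464, 2.45 and 0.807 CPM and its EXP libraries at 2.13, 0.431, 1.21, 1.82 and 2.09, which overlapped (log2 fold change 0.52, adjusted p = 0.604). On day 2 the CTRL libraries were at 0.758, 0.310 and 0.313 CPM and the EXP libraries at 8.21, 3.57 and 3.16. On day 4 the CTRL libraries were at 0.579, 0.421, 1.18 and 1.28 CPM and the EXP libraries at 32.1, 2.81 and 3.57. The EXP libraries lay above all CTRL libraries on days 2 and 4, as in 21.2% and 15.0% of all genes tested. EXP replicate 1 of day 4 again stood above all others. Nrg1 rose with log2 fold changes of 3.43 on day 2 and 3.88 on day 4, whose SEs were 0.91 and 0.79 and whose adjusted p were 0.0166 and 0.00260. Without EXP replicate 1 the day 4 value was 1.85 (adjusted p = 0.0720), and the day 2 call was lost without CTRL replicate 2, CTRL replicate 3 or EXP replicate 1 (adjusted p up to 0.0860).

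Areg and Tgfa, which encode the EGFR ligands amphiregulin and TGF-α, were scarce and not called on any day. Areg was at 0, 0, 0.463 and 0.298 CPM in day 4 CTRL libraries and at 2.32, 3.13 and 0.401 in EXP libraries. EXP replicates 1 and 2 were above every CTRL library and replicate 3 was within their range. The day 4 log2 fold change was 3.31 (SE 1.29, edgeR adjusted p = 0.0683), and it passed the threshold without EXP replicate 3 (3.79, adjusted p = 0.0405). That pass leaves only EXP replicates 1 and 2 in the group, the libraries in which Areg was high, so nothing is drawn from it. On days 1 and 2 no Areg library held more than 17 counts. Tgfa ranged from 0 to 1.304 CPM over all libraries, with overlapping arms on each day and log2 fold changes of 0.09, 1.28 and 0.57 (adjusted p from 0.460 to 0.947). Single libraries moved the day 2 value of Tgfa from 0.30 to 4.44, the highest without CTRL replicate 1 (adjusted p = 0.0625).

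**Figure D3:**
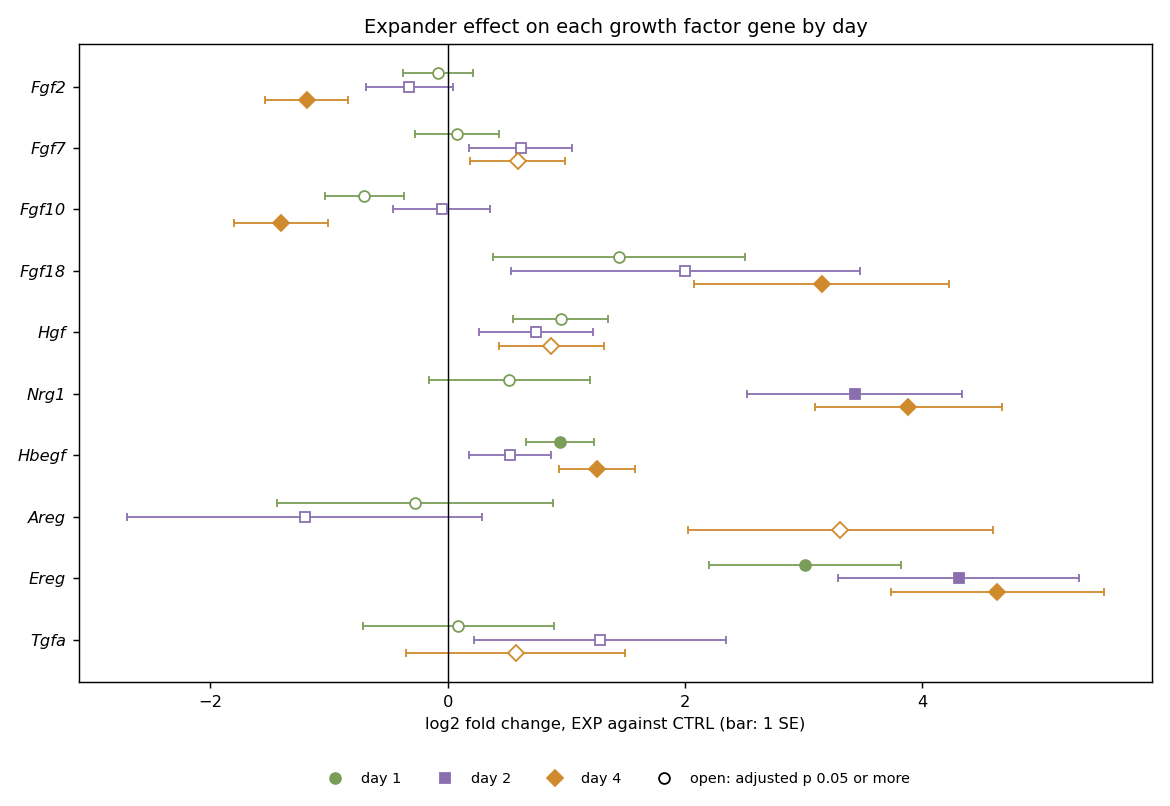
Log2 fold change of EXP against CTRL with 1 SE for each member on day 1 (circles), day 2 (squares) and day 4 (diamonds); filled symbols have an adjusted p under 0.05 (edgeR, all genes). Ereg is filled on all 3 days at 3.01, 4.31 and 4.63, and Fgf2 and Fgf10 are filled below 0 on day 4; the day 2 value of Fgf18 rests on 5 or fewer counts per library.

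A single library weighed on the day 4 values. EXP replicate 1 was the highest of all 22 libraries for 5 of the 10 members and for 11.6% of the genes tested. Without it, 1 member was called on day 4 (Ereg), against 6 with it, and 1630 genes in all against 3954. The log2 fold changes of Nrg1 and Hbegf fell from 3.88 and 1.26 to 1.85 and 0.76. Those of Fgf2, Fgf18 and Fgf10 were -1.19, 3.17 and -1.19, against -1.19, 3.15 and -1.41 with all libraries. Their SEs rose from 0.35, 1.08 and 0.40 to 0.41, 1.20 and 0.44. Leaving out EXP replicate 2 instead left 3 members called. Markers of other cell types moved as well. The summed level of 6 adipocyte markers was 0.718 to 1.49 CPM in day 2 CTRL and 10.8 to 83.9 in day 2 EXP, and 1.85 to 2.98 in day 4 CTRL and 61.6 to 270 in day 4 EXP, with the lowest of the day 4 EXP values in replicate 1. Of the 5 adipocyte markers tested, 3 rose on day 2 and 5 on day 4. For 6 endothelial markers the sums were 0.160 to 0.652 and 2.01 to 8.50 CPM on day 2, and 3.53 to 8.74 and 21.4 to 54.7 CPM on day 4; 1 of 5 tested rose on day 2 and 2 on day 4. On day 1 none of the adipocyte or endothelial markers was called. The 7 pericyte and smooth muscle markers summed to 11.07 to 45.09 CPM in day 1 CTRL and 10.17 to 35.08 in EXP. Their sums were 10.97 to 19.66 and 23.15 to 49.17 on day 2, and 20.19 to 30.36 and 34.33 to 61.07 on day 4. Of these 7, none rose and 1 fell on day 1, 1 rose and 1 fell on day 2, and 1 rose on day 4.

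The keratinocyte markers summed to 9.37 to 56.8 CPM in day 1 CTRL and 4.14 to 23.7 in EXP, 8.58 to 43.1 and 6.75 to 9.30 on day 2, and 10.9 to 33.5 and 5.62 to 33.5 on day 4. Of the 12 tested, none rose, and 2, 1 and 1 fell on the 3 days. In day 4 EXP replicate 1, 9 of the 13 were at 0. The 9 haematopoietic markers summed to 43.2 to 86.7 CPM in day 1 CTRL and 42.7 to 67.1 in EXP, 101.5 to 132 and 83.6 to 110 on day 2, and 93.0 to 124.4 and 93.7 to 132 on day 4. Of the 5 tested, S100a8, a neutrophil gene, rose on all 3 days, Cd68 rose on days 1 and 2, Cd3e rose on day 4 and Csf1r fell on day 1. S100a8 averaged 0.345, 1.89 and 1.15 CPM in EXP on days 1, 2 and 4. Its log2 fold changes of 6.19, 6.48 and 6.21 put its CTRL level below the floor. It thus passed the filter mainly through EXP libraries, in which it is high, and its calls carry that limit. The 6 Schwann and melanocyte markers summed to 6.57 to 15.48 CPM in day 1 CTRL and 5.392 to 33.22 in EXP. Their sums were 4.182 to 10.3 and 18.39 to 39.12 on day 2, and 3.159 to 13.05 and 1.908 to 23.47 on day 4. Of the 3 tested, none was called on any day. The part of adipocytes, endothelial cells, pericytes, smooth muscle, keratinocytes, blood, Schwann cells and melanocytes in the member values was not tested.

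**Figure D4:**
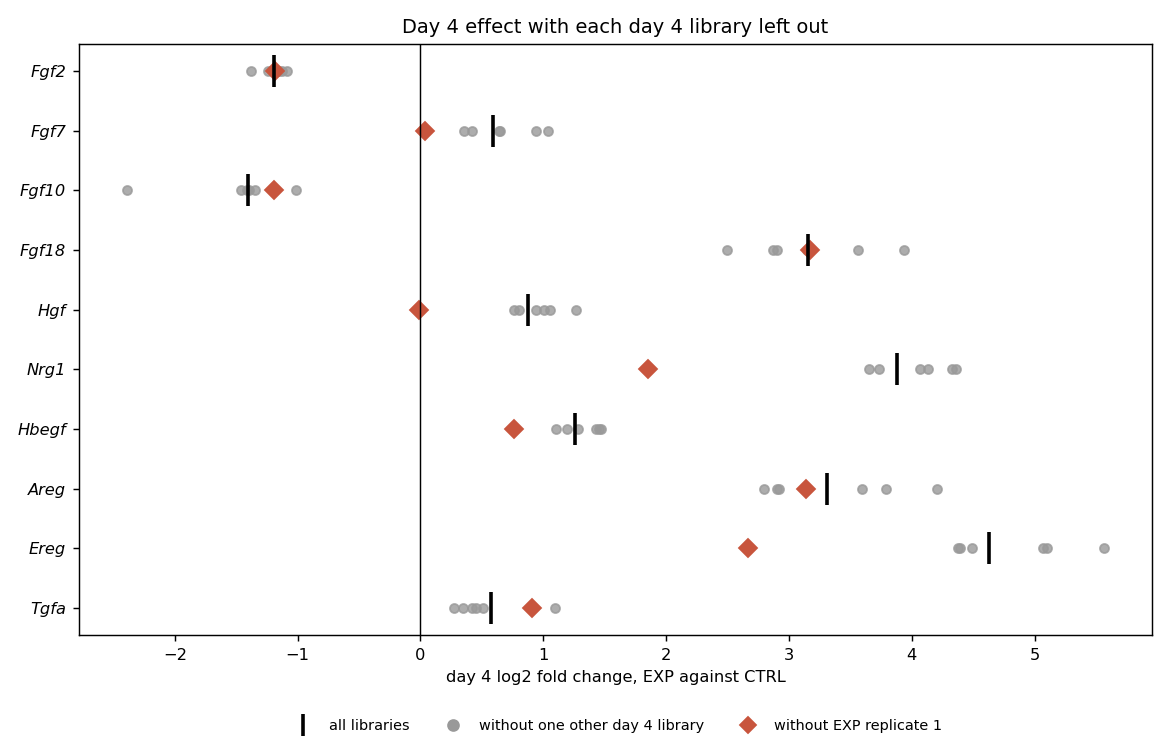
Day 4 log2 fold change of each member with all libraries (black bar) and with each day 4 library left out in turn (points); the red diamond leaves out EXP replicate 1. For Ereg, Nrg1, Hbegf and Hgf the red diamond lies nearest 0 of all the points, at 2.67, 1.85, 0.76 and -0.011, and for Fgf2 and Fgf18 it lies close to the black bar.

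The division of the libraries by the Rnf10-tracking genes was also set against the calls. Among day 1 libraries of the high side alone (3 CTRL, 2 EXP), the log2 fold change of Ereg was 3.21 (adjusted p = 0.0125) and that of Hbegf 1.13 (adjusted p = 0.0766). Day 2 had libraries of the low side only. Among day 4 libraries of the low side (2 CTRL, 3 EXP), the log2 fold changes were 5.81 for Ereg, 4.65 for Nrg1, 0.92 for Hbegf, 2.70 for Fgf18, -1.001 for Fgf2 and -1.36 for Fgf10. None of these passed (adjusted p from 0.165 to 0.325), in a fit in which 1 gene in all did. The 6 directions were those of the full fit. The full fit holds these same libraries and supplied the genes read on both days. Neither the day 1 values nor the shared day 4 directions are therefore separate support.

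Whether the effect of the expander differed between days was tested jointly. No member passed (edgeR quasi-likelihood test), against 8.65% of all genes; Nrg1 alone had an unadjusted p under 0.05, with an adjusted p of 0.0636. It passed with DESeq2 (adjusted p = 0.0113) and without day 4 EXP replicate 2 or 3 (down to 0.0266), and not with the other alternatives run (0.0537 to 0.190). Limma voom called Fgf10 (0.0284) and Areg (0.0390) instead. Within the EXP arm, Nrg1 (adjusted p = 0.0155) and Ereg (adjusted p = 0.0459) changed over the days, against 14.1% of all genes. Nrg1 averaged 1.53 ± 0.718 (SD, n = 5), 4.98 ± 2.80 (n = 3) and 12.8 ± 16.7 CPM (n = 3) on days 1, 2 and 4, and Ereg 31.2 ± 20.0, 65.5 ± 30.1 and 210 ± 269 CPM. Without day 4 EXP replicate 1 both calls were lost (adjusted p of 0.107 for Nrg1 and up to 0.502 for Ereg, whose call was kept in 8 of 22 fits that left out a library). Within the CTRL arm no member changed over the days and none had an unadjusted p under 0.05 (edgeR), against 0.302% of all genes called; DESeq2 and limma voom called 0 members as well.

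Receptors for these ligands were read in the same fibroblasts. Of 9 receptor genes tested, 2 were called higher and none lower on day 1, 1 higher and none lower on day 2, and 1 higher and 3 lower on day 4; the median log2 fold change was 0.16, -0.03 and 0.06. Egfr, the receptor of Ereg, Hbegf, Areg and Tgfa, rose on each day, from 228 ± 69.2 to 384 ± 108 CPM (SD, n = 4 and 5), from 195 ± 15.0 to 355 ± 70.9 (n = 3 and 3) and from 216 ± 31.9 to 357 ± 13.1 (n = 4 and 3). Its log2 fold changes were 0.75, 0.86 and 0.72 (adjusted p = 0.00997, 0.0266 and 0.0309). The day 1 call was kept in all 9 fits that left out a day 1 library; that of day 2 was kept only without EXP replicate 2 (adjusted p otherwise up to 0.103), and that of day 4 only without CTRL replicate 1 or EXP replicate 3 (otherwise up to 0.102).

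Met, the HGF receptor, rose on day 1 by a log2 fold change of 1.22 (adjusted p = 0.0238), and this call was lost without CTRL replicate 3 or 4 or EXP replicate 2 (adjusted p up to 0.0769); its values on days 2 and 4 were -0.03 and 0.06. Fgfr2 fell on day 4, from 148 ± 79.8 to 24.9 ± 21.6 CPM (SD, n = 4 and 3), with a log2 fold change of -2.58 (adjusted p = 0.00740) that stayed called without any 1 of the day 4 libraries. The counts do not separate the epithelial from the mesenchymal splice form of Fgfr2, and its exons overlap those of Ctbp2. Fgfr4 fell on day 4 from 146 ± 24.5 to 25.1 ± 32.6 CPM (log2 fold change -2.54, adjusted p = 0.0282), a call lost without CTRL replicate 3 or EXP replicate 2 (adjusted p up to 0.125). Fgfr3 fell by 1.31 on the log2 scale on day 4 (adjusted p = 0.0452), a call kept only without EXP replicate 3 (otherwise up to 0.195).

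The remaining receptors were not called on any day. Fgfr1, the main FGF receptor of mesenchymal cells, averaged 123 to 314 CPM over the 6 groups, with log2 fold changes of 0.41, 0.72 and 0.16. Erbb2 averaged 11.2 to 28.4 CPM, Fgfrl1 2.39 to 4.91 and Erbb3, a receptor of neuregulin, 0.548 to 1.29. Erbb4, the other neuregulin receptor, had 0 counts in every library and was not tested.

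Among 18 other genes of the FGF family, 8 were tested. On day 1, 1 was called higher and 3 lower, and on day 2, 1 higher and none lower. On day 4, 2 were higher and 2 lower (1 higher and none lower without EXP replicate 1). The lower calls were Fgf12, Fgf13 and Fgf14 on day 1 and Fgf13 and Fgf14 on day 4. These genes encode FGF homologous factors rather than secreted ligands, so no other FGF ligand was called lower. With these factors included, the medians were -1.17, -1.19 and -0.95 on the log2 scale. Fgf23, which encodes a hormone of phosphate balance, rose on each day: it averaged 4.93, 0.0654 and 0.170 CPM in CTRL and 54.9, 61.1 and 45.5 CPM in EXP on days 1, 2 and 4 (adjusted p = 0.00571, 0.000838 and 0.000422), and kept its calls without any 1 library of the day. Its CTRL mean lay below the floor of 0.0799 to 0.155 CPM on day 2 and just above it on day 4. The size of the rise on these days is therefore uncertain. Fgf13 and Fgf14, which encode FGF homologous factors that stay inside the cell, fell on days 1 and 4. Fgf13 fell by 1.55 and 2.06 on the log2 scale (adjusted p = 0.0265 and 0.0220) and Fgf14 by 1.54 and 1.77 (adjusted p = 0.0285 and 0.0406). These calls were lost without several single libraries, among them day 1 CTRL replicate 2 and EXP replicate 3 and day 4 EXP replicates 1 and 2 for both genes (adjusted p up to 0.107 for Fgf13 and 0.167 for Fgf14). Of 6 other EGF-family ligand genes 3 were tested and none was called on any day (adjusted p of 0.285 or more).

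The MAPK feedback genes, which are induced by the cascade and dampen or relay it, were called in both directions. Of 14 tested, 2 were higher and 1 lower on day 1, 4 and 1 on day 2, and 1 and 4 on day 4 (1 and 1 without EXP replicate 1), with medians of 0.38, 0.45 and -0.21. Dusp4, a MAPK phosphatase, rose from 2.46 ± 0.750 to 15.1 ± 7.16 CPM (SD, n = 3 and 3) on day 2 and from 3.12 ± 1.78 to 14.4 ± 3.67 (n = 4 and 3) on day 4 (adjusted p = 0.00637 and 0.00649). Etv5, an ETS factor induced by FGF signalling, rose by a log2 fold change of 0.71 on day 1 and 0.92 on day 2 (adjusted p = 0.0124 and 0.0172); the latter call was lost without CTRL replicate 2 or EXP replicate 1 (adjusted p up to 0.171). Spry1, an inhibitor of receptor tyrosine kinase signalling, fell on each day by 0.89, 1.10 and 1.17 on the log2 scale (adjusted p = 0.0176, 0.0332 and 0.0142). Its day 1 call was kept in all 9 fits, that of day 2 was lost without CTRL replicate 2 or 3 or EXP replicate 1 or 3 (up to 0.119), and that of day 4 without CTRL replicate 3 or EXP replicate 1 or 2 (up to 0.0830).

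Genes that release or activate the ligands were also read. Of 8 shedding genes, 2 were higher and 1 lower on day 1, 1 higher and none lower on day 2, and 1 and 1 on day 4 (none without EXP replicate 1). Adam9, a membrane protease, rose on each day by log2 fold changes of 0.48, 1.07 and 0.79 (adjusted p = 0.0358, 0.00200 and 0.00624), from 280 to 390, 184 to 387 and 220 to 382 CPM. Its day 1 call was lost without CTRL replicate 1, 3 or 4 or EXP replicate 1 or 5 (adjusted p up to 0.131) and its day 4 call without EXP replicate 1 (adjusted p = 0.0566). Of 8 tested genes of HGF activation, 2, 2 and 3 were higher on days 1, 2 and 4 (2 on day 4 without EXP replicate 1) and none was lower, with medians of 0.88, 0.63 and 0.33. Plat, which encodes tissue plasminogen activator, rose from 45.7 ± 6.65 to 186 ± 50.9 CPM (SD, n = 3 and 3) on day 2 and from 119 ± 30.0 to 751 ± 434 (n = 4 and 3) on day 4 (log2 fold changes 2.03 and 2.65, adjusted p = 0.00319 and 0.000231). Plau, which encodes urokinase, a protease that can cut pro-HGF, rose by 1.68 on day 2 (adjusted p = 0.0328) and 3.04 on day 4 (adjusted p = 0.000375). The day 2 call of Plau was lost without any 1 of the 6 day 2 libraries (adjusted p up to 0.117), while its day 4 call and both calls of Plat were kept. The effects on Plat and Plau differed between days (adjusted p = 0.00133 and 0.0228).

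Heparan sulfate genes moved in both directions. Of 19 tested, 1 was higher and 6 lower on day 1, 1 and 1 on day 2, and 5 and 2 on day 4 (1 and 2 without EXP replicate 1), with medians of -0.18, 0.31 and 0.22. The sulfatases that trim heparan sulfate outside the cell went opposite ways. Sulf1 rose from 12.1 ± 4.14 to 73.5 ± 31.2 CPM (SD, n = 3 and 3) on day 2 and from 19.7 ± 7.14 to 277 ± 152 (n = 4 and 3) on day 4, with log2 fold changes of 2.61 and 3.81 (adjusted p = 0.00245 and 9.3e-05) that stayed called without any 1 library of the day. Sulf2 fell from 515 ± 73.0 to 146 ± 22.8 CPM (n = 4 and 5) on day 1, from 752 ± 92.7 to 183 ± 101 on day 2 and from 679 ± 112 to 206 ± 181 on day 4, by 1.81, 2.04 and 1.72 on the log2 scale (adjusted p = 0.00288, 0.0136 and 0.0180). Its calls were lost without EXP replicate 1 on day 2 (adjusted p = 0.0725) and without EXP replicate 2 on day 4 (adjusted p = 0.0780). The effect on Sulf1 differed between days (adjusted p = 0.00547).

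The genes whose 6 group means most resembled those of a called member were found by the root-mean-square difference of centred log2 CPM over the 6 groups. For Ereg they were Mmp12, which encodes macrophage elastase, at 0.350, then Steap1 at 0.426 and the cytokine gene Il11 at 0.544, where the group means of Ereg spanned 5.63. For Nrg1 they were Itga7 at 0.177, Arxes2 at 0.223 and Fbn2 at 0.240, with a span of 3.80. For Fgf18 they were Plscr1 at 0.231, Plau at 0.253 and Thbd at 0.259, with a span of 3.38. Hbegf was nearest to Gm9703 at 0.0628, Rpl36a-ps2 at 0.0737 and Nup43 at 0.0811, and its means spanned only 1.31. Fgf10 was nearest to Il16 at 0.124, Ppfibp2 at 0.165 and Ptk7 at 0.169, and Fgf2 to Pkd2 at 0.104, Tmem248 at 0.116 and Wwc2 at 0.117, with spans of 1.74 and 1.17. These distances describe the 6 group means, which share their libraries, and were not tested.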

How the data were processed

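The authors deposited 1 table of raw read counts per Ensembl gene, 1 column per library. Per the submitters' processing notes, reads were handled with Trimmomatic and the build was mm39; the aligner, counting tool, annotation and strand setting are not given in the sources used here. Symbols, exon lengths and exon overlaps came from GENCODE M21, which named 52081 of 55414 identifiers; Nrdc was found under its older symbol. Genes overlapping another on the opposite strand (among the members Fgf2, Fgf10, Nrg1, Ereg and Tgfa) have uncertain counts, as has Hgf, whose exons overlap Gm43489 on the same strand.

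Counts were analysed in R 4.3.3 with edgeR 4.0.16 (TMM scaling, filterByExpr with a minimum count of 10, robust quasi-likelihood F-test, 1 mean per group of day and arm, 16 residual degrees of freedom). The Benjamini-Hochberg adjustment covered all genes of a contrast, calls were made at 0.05, and log2 CPM used a prior count of 2. The script was tested on simulated data. Replicate numbers recur across arms; deviations of same-numbered libraries correlated above 0.1 in every pair on no day, so the numbers were not taken as pairs.

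The members and gene lists were chosen with earlier results of these data known. Named by rule were all members, receptors, list genes called on at least 2 of the 3 days, and for each called member the 3 genes of most similar group means among tested genes averaging at least 1 CPM. Rnf10 and the single marker genes were named after their values were seen. Alternatives were DESeq2 1.42.0, its size factors, library totals, no filter, limma 3.58.1 voom, fits on each contrast's libraries, a replicate block, the library split as covariate, and leaving out each library. Promoter windows are from RefSeq.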

Additional observations from a re-analysis of the deposited data

Results flagged for a closer look

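Among the 30 groups of 4 or 5 libraries examined for the 10 members, 2 held a library whose gap to its nearest neighbour was large against the range of the group; chance gives this in about 1 in 20 groups. Fgf7 stood at 92.7 CPM in day 1 EXP replicate 2, while the other 4 libraries of that group were at 44.6 to 58.3 CPM; without it the day 1 log2 fold change was -0.16 instead of 0.08, and neither was called. Ereg stood at 20.6 CPM in day 4 CTRL replicate 4, while the other 3 were at 3.54 to 5.94 CPM; without it the day 4 log2 fold change of Ereg was 5.56 (edgeR, adjusted p = 0.00206) instead of 4.63. Groups of 3 were not examined in this way, which leaves out day 4 EXP.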

How the results depend on the processing

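None of the 10 called effects of members on single days changed sign under any alternative run. Without TMM, the median of all genes moved to 0.21, 0.49 and 0.36 log2 units on days 1, 2 and 4; Fgf2 was then at 0.12 and 0.15 on days 1 and 2 and Fgf10 at 0.41 on day 2, all below or near that shift and not called. Uncalled day 1 values also changed sign with voom (Fgf7 -0.076, Fgf18 -0.11, Tgfa -0.20), with the library split as covariate (Fgf2 0.13) and within 1 side of it (Tgfa -0.21). DESeq2 called 2609 genes and 1 member between days, 5 members over days in EXP and 525 genes over days in CTRL. Library totals gave 4631 genes on day 2 and 163 over days in CTRL. With no filter, 1 member was called on day 2 and 1 over days in EXP. Voom called 4547 genes on day 2, 2296 genes and 2 members between days and 564 genes over days in CTRL. Fits on each contrast's own libraries called 4 members on day 2, 1097 genes and 2 members on day 4, 1334 genes and 0 members over days in EXP and 326 genes over days in CTRL. The replicate block gave 3 members on day 4, 392 genes between days, 1471 genes and 1 member over days in EXP and 21 genes over days in CTRL; same-numbered libraries correlated at -0.07 to 0.16 on day 1, -0.06 to 0.00 on day 2 and 0.08 to 0.15 on day 4. The split as covariate gave 22 genes over days in CTRL. Within 1 side of the split, an alternative chosen after seeing the data, 2221 genes and 1 member were called on day 1 and 1 gene and 0 members on day 4. With each library left out, genes called ran from 4020 to 5235 on day 1, 894 to 2710 on day 2, 1630 to 5012 on day 4, 893 to 2553 between days, 1298 to 3341 over days in EXP and 5 to 131 over days in CTRL. Members called ran from 1 to 3, 0 to 2 and 1 to 7 on the 3 days, 0 to 2 between days and 0 to 5 over days in EXP. Without a library, uncalled values changed sign within these ranges: Fgf2 -0.30 to 0.11, Fgf7 -0.16 to 0.18 and Areg -1.29 to 0.042 and Tgfa -0.19 to 0.34 on day 1, Fgf10 -0.25 to 0.11 and Areg -5.83 to 0.61 on day 2, and Hgf -0.011 to 1.27 on day 4. Counts under about 20 per library limit Fgf18, Areg and Tgfa.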
